A study of Mus musculus with 24 samples.

Results

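The response of DN4 thymocytes to interleukin 7 (IL7) was measured by comparing 4 IL7-treated with 4 untreated DN4 cultures on 8 of the 24 Illumina mouse Ref8v2 beadchips of a study of early T cell development. The arrays were chosen by their titles, and each treated culture was paired with the untreated culture of the same sort. The comparison covered all 8820 genes that had a named probe detected above background (p under 0.05) in 4 or more of the 24 hybridisations. The other 16 arrays held DN3a and DN3b cells cultured in the same way, 8 arrays each. Thymocytes of C57BL/6J mice with an intact Il7r gene (Il7r+/+) were obtained in 4 independent sorts. The DN4 gate took large cells without lineage markers, cKit or CD25 and with high CD71. DN3b cells were gated alike but with CD25, and DN3a cells were small, with CD25 and low CD71. The sorted cells rested for 1 h and were then kept for 3 h either without cytokine or with 10 ng/ml IL7. Both DN4 groups shared the strain, the genotype, the gate, the rest and the culture time, so that IL7 was the only labelled difference between them. Age, sex and the number of mice in a sort are not given in the sources used here.

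Double-negative (DN) thymocytes carry neither CD4 nor CD8. DN4 cells have passed beta-selection, the checkpoint at which a working T cell receptor beta chain pairs with the pre-T alpha chain, and are about to become double-positive cells. IL7, made by thymic stroma, binds a receptor of the IL7R chain and the common gamma chain. The receptor activates the kinases JAK1 and JAK3, which phosphorylate the transcription factor STAT5. STAT5 binds the palindrome TTCNNNGAA and induces survival genes such as Bcl2 and the feedback inhibitors of the CIS and SOCS family, which bind the receptor or the kinases and dampen the signal. The receptor also feeds the kinase AKT, which excludes FOXO transcription factors from the nucleus.

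Thymocyte identity was clear on all 8 arrays. Cd3e, Cd3d and Cd3g, the chains of the CD3 complex, lay between 12.38 and 14.24 on the normalized log2 scale, on which 1 unit is a 2-fold step. The lowest signal of a detected probe was 5.16 to 5.33 on that scale, and 10940 to 11660 probes were detected per array. The summed linear level of the 10 measured thymocyte markers ran from 55917 to 62140 in untreated and from 57613 to 65086 in IL7-treated cultures. Granulocyte transcripts were present in sorts 2 and 3 in both treatments. Over 17 measured markers, the untreated sums in sorts 1 to 4 were 441, 9687, 8857 and 686, and the IL7-treated sums were 450, 8562, 8338 and 650. Their main contributor S100a8, a calcium-binding protein of neutrophils, stood at 4.45, 12.39, 12.29 and 7.58 without IL7 and at 5.25, 12.25, 12.15 and 7.60 with it. None of the 11 granulocyte markers tested passed the threshold for a change with IL7, and Retnlg, Mmp8 and Cxcr2 were detected on none of the 8 arrays. Haemoglobin alpha (Hba-a1) was high in sorts 1 and 3, at 9.72, 4.99, 9.05 and 4.51 without IL7 and 9.42, 4.76, 8.50 and 4.61 with it. It was 1 of 7 measured erythroid markers, of which 5 were detected on none of the 8 arrays. Klf1 was detected on 2 treated and 0 untreated arrays. In these bulk samples, fewer cells of a type and less RNA per cell cannot be told apart. Both treatments of a sort carried these transcripts alike, and calls lost without sorts 2 and 3 are given below.

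Promoter windows of the strongest IL7 responders are shown first, because TTCNNNGAA, the letters STAT5 reads, can be looked for in them directly. Each window is the RefSeq sequence (GRCm38.p6) from 250 bases before to 50 bases after a start site, printed 5′ to 3′ on the gene's strand, with every match in capitals. The motif is its own reverse complement, so that 1 search covers both strands. It was found in 8.30% of all 32851 windows of the table and in 8.67% of the 7236 tested genes that had a window. Of 129 genes that rose in DN4 cells and had a window, 24 (18.6%) held it, in 13.8% of their 174 windows. Of 39 that fell, 3 (7.69%) held it. A match is a description of these letters and not a site or a cause. Among the 15 largest rises and the rising IL7 and STAT5 targets, windows with matches are given for Cish (chr9:107296409-107296708, plus strand), Sgk1 (chr10:21881934-21882233, plus strand, 1 of its 6 windows), Socs3 (chr11:117969317-117969616, minus strand), Gbp5 (chr3:142496684-142496983, plus strand) and Lta (chr17:35205302-35205601, minus strand).
Cish: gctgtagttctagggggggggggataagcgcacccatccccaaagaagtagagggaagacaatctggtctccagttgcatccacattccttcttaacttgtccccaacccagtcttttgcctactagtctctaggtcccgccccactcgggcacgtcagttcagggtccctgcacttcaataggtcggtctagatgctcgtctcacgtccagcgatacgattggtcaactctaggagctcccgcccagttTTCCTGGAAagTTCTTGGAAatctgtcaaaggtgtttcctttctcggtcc
Sgk1: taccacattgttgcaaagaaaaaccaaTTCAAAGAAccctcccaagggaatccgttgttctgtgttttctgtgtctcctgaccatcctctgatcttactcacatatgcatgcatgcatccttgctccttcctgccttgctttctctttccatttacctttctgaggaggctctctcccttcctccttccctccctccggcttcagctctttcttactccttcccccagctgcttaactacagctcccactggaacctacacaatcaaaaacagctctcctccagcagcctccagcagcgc
Socs3: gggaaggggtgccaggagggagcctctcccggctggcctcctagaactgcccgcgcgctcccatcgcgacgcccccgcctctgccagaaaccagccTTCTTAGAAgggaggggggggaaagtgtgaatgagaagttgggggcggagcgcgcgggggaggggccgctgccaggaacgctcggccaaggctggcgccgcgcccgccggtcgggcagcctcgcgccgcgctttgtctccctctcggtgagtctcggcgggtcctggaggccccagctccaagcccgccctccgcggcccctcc
Gbp5: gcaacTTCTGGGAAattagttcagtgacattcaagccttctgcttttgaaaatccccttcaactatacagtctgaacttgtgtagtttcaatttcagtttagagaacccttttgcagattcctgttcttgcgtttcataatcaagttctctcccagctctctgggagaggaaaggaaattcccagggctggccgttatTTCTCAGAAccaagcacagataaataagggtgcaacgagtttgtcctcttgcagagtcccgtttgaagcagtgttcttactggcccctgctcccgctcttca
Lta: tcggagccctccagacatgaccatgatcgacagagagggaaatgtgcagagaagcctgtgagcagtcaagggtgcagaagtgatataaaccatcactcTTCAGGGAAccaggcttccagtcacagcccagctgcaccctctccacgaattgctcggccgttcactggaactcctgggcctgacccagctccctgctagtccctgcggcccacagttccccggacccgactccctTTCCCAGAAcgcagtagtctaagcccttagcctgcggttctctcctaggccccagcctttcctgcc
Cish held a pair of matches directly after the start site, TTCCTGGAA and TTCTTGGAA, whose first bases lay 11 bases apart. The matches in Gbp5 began 245 and 52 bases before the start, and those in Lta 152 and 16 bases before it. The windows of Bcl2 (chr1:106714241-106714540, minus strand) and Gpr83 (chr9:14859960-14860259, plus strand), which also rose strongly, held no match within these 300 bases. Nor did those of Vegfa, Prnp, Ctla4, Sema7a, Pim1, Socs1, Il2ra and Bcl2l1.
Bcl2: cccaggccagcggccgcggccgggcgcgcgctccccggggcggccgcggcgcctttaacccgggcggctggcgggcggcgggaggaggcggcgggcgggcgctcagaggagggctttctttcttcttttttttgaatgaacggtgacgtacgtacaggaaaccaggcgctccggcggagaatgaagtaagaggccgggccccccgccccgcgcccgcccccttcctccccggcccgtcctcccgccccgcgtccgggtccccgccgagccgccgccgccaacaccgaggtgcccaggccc
Gpr83: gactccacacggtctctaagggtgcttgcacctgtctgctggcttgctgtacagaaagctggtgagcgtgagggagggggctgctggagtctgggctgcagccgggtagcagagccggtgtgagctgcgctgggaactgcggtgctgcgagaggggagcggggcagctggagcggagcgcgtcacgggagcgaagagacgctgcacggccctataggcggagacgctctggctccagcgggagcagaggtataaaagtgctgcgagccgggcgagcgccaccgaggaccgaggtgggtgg
The window of Bcl6 (chr16:23981234-23981533, minus strand) was added after its values were seen, since Bcl6 fell more than any other gene. It held 3 matches, more than any riser shown.
Bcl6: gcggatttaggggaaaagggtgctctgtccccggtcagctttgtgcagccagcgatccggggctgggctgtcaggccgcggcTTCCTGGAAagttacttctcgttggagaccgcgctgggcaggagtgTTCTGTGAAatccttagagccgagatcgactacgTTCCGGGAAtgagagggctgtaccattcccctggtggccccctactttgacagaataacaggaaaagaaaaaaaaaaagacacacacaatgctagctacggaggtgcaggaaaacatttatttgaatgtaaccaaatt
The tables used here hold no window for Socs2, Osm, Bhlhe40, Ikzf4 and Ccnd2, and that of Map3k8 was not analysed here.

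IL7 changed a small set of genes in DN4 cells, and most of them rose. With limma and Benjamini-Hochberg adjustment over the 8820 genes, 215 passed an adjusted p of 0.05 (2.44%), of which 164 were higher (1.86%) and 51 lower (0.578%) with IL7. Risers made up 76.3% of the calls, against 65.9% (191 higher, 99 lower) without background correction. At an unadjusted p under 0.05 there were 1006. All but 1 of the 215 changed in the same direction in all 4 sorts. The rises were also larger than the falls. Among the risers the median log2 change was 0.70, and 47 rose at least 2-fold, while among the fallers it was -0.44 and Bcl6 alone fell by 2-fold or more. Over all genes tested the median was -0.01. The 4 treated and the 4 untreated levels did not overlap for 120 of the 164 risers and for 28 of the 51 fallers, while over all 8820 genes they did not overlap for 3.53%. Being called and not overlapping rest on the same values.

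**Figure D1:**
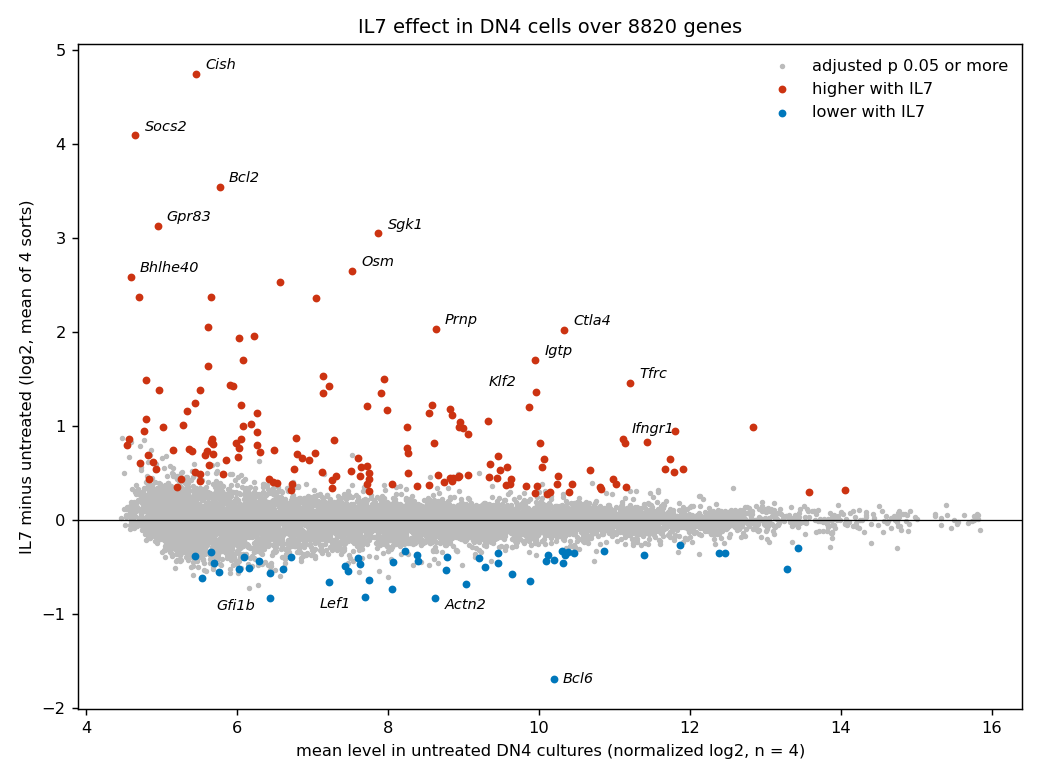
The change with IL7 in DN4 cells (log2, mean of 4 sorts, y axis) is plotted against the mean untreated level (normalized log2, x axis) for 8820 genes, with the 164 risers in red and the 51 fallers in blue. The risers reach 4.74 (Cish), and among the fallers Bcl6 stands apart at -1.69.

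The feedback inhibitors of cytokine signalling gave the strongest rises. Cish, which encodes CIS, stood at 5.77, 5.55, 5.41 and 5.10 in the untreated cultures of sorts 1 to 4 and at 10.11, 9.96, 10.41 and 10.31 in the treated ones. The groups were far apart, and the mean change was 4.74 log2 units (SE 0.15, n = 4 sorts, limma adjusted p = 2.4e-09), a 26.7-fold rise. Cish was detected in 3 of 4 untreated cultures and lay close to background there, so that the size of this rise depends on background levels. Socs2, a second member of the family, was not well above background in any untreated culture, at 4.66, 4.87, 4.61 and 4.48. It reached 8.94, 8.56, 8.49 and 8.97 with IL7, at least 11.2-fold higher (adjusted p = 1.6e-08). Socs3 was already measurable at 6.58, 6.51, 6.93 and 6.25 and rose to 9.04, 8.85, 9.25 and 9.25, by 2.53 (SE 0.10, adjusted p = 1e-08). Socs1 rose least and least evenly, from 6.17, 6.67, 5.76 and 5.34 to 6.76, 6.87, 6.67 and 6.93. Its change was 0.82 (SE 0.18, adjusted p = 0.025), with 0.20 in sort 2 and 1.59 in sort 4, and it was not called without sorts 2 and 3 (adjusted p = 0.19). Socs4 to Socs7 had values between -0.01 and 0.19, and none passed the threshold, so that 4 of the 8 family members were higher. The family was picked out after its values were seen.

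Survival genes followed. Bcl2, which blocks the mitochondrial path of apoptosis, stood at 6.32, 5.52, 5.52 and 5.73 without IL7 and at 9.31, 9.26, 9.23 and 9.44 with it. The treated cultures lay close together, and the mean rise was 3.54 (SE 0.14, adjusted p = 1e-08), 11.6-fold. Untreated Bcl2 was detected in all 4 cultures but lay close to background in sorts 2 to 4. The size of this rise therefore depends on background levels. The other 5 Bcl2 probes that passed the detection filter rose as well, by 1.32 to 3.78. They were detected on 3 to 7 of the 8 DN4 arrays, so that the sizes of their rises depend on background levels. Its relative Bcl2l1, which encodes BCL-XL, rose by 0.50 (adjusted p = 0.03), with overlapping groups and no call without sorts 2 and 3 (adjusted p = 0.51). Mcl1, another survival factor that thymocytes need, had a change of 0.39 that did not pass (adjusted p = 0.079). Bcl2l11, which encodes the death activator BIM opposed by IL7 signalling, had 0.03 (adjusted p = 0.95). Of 11 BCL2 family genes tested, 2 were higher and none lower, and the median change was -0.01 against -0.01 for all genes.

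**Figure D2:**
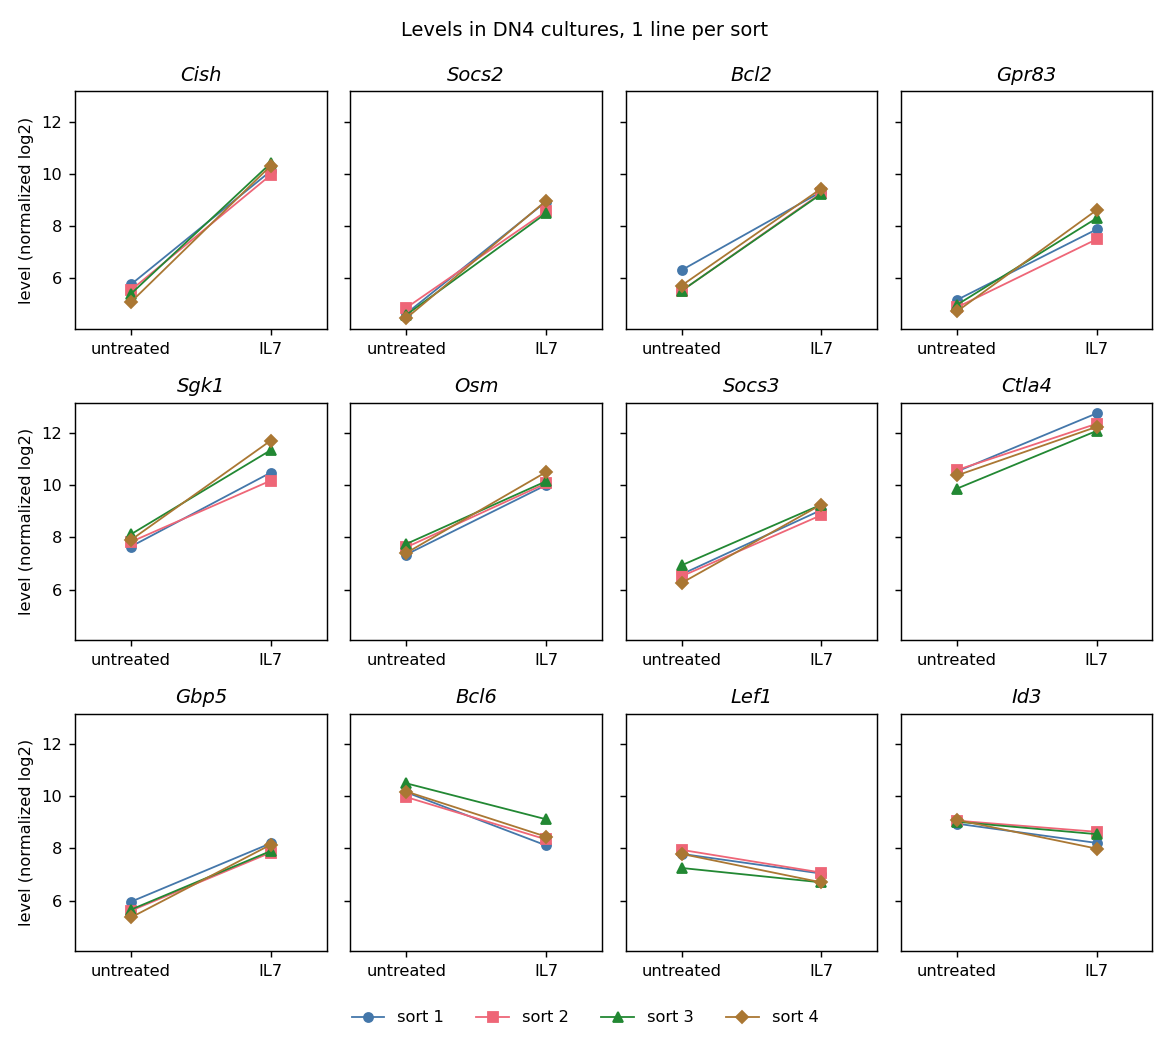
Normalized log2 levels (y axis) of 12 genes are joined for the untreated and the IL7-treated DN4 culture of each sort. In all 12 genes the 4 lines run the same way, which the choice of genes required. The groups do not overlap, with rises from Cish to Gbp5 and falls in Bcl6, Lef1 and Id3.

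Kinases and signalling proteins formed the next group. Sgk1, a serum- and glucocorticoid-regulated kinase that acts beside AKT, stood at 7.65, 7.82, 8.12 and 7.90 and rose to 10.47, 10.17, 11.33 and 11.70. The rise of 3.05 (SE 0.24, adjusted p = 5.6e-06) differed between sorts, from 2.34 in sort 2 to 3.80 in sort 4. Map3k8, which encodes the MAP kinase kinase kinase TPL2, was not well above background in untreated cultures. It reached 6.98, 6.23, 7.23 and 7.86 with IL7, at least 3.54-fold higher (adjusted p = 4.3e-05). Pim1, a survival kinase induced by STAT5, went from 5.76, 6.19, 5.43 and 4.67 to 7.49, 6.73, 7.04 and 6.31, a rise of 1.38 (adjusted p = 0.00075) that was smallest in sort 2. A dimmer Pim1 probe had a value of -0.09 (adjusted p over all probes = 0.92). Pik3cd, the catalytic PI3K delta subunit of lymphocytes, rose by 1.11 (adjusted p = 8.3e-06), and Rasgrp1, an exchange factor that activates RAS in thymocytes, by 0.82 (adjusted p = 7.1e-06). Both were singled out after their values were seen.

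Secreted factors and surface receptors were among the risers. Osm, which encodes the cytokine oncostatin M, stood at 7.34, 7.62, 7.74 and 7.40 without IL7 and at 9.99, 10.06, 10.14 and 10.49 with it. Its rise was 2.65 (SE 0.15, adjusted p = 3.1e-07), 6.26-fold. Vegfa, the vascular endothelial growth factor, went from 7.26, 7.65, 6.45 and 6.85 to 9.82, 9.18, 9.10 and 9.54, a rise of 2.36 (SE 0.17, adjusted p = 2.2e-06). Lymphotoxin alpha (Lta) was not well above background in any untreated culture and was detected in all treated ones, at 6.25, 6.04, 6.17 and 6.69, at least 2.05-fold higher (adjusted p = 0.0032). Tnfsf11, which encodes RANKL, a signal to thymic epithelium, rose by 1.64 (adjusted p = 0.0024).

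Among receptors, Gpr83, a G protein-coupled receptor known from regulatory T cells, was detected in 1 of 4 untreated cultures, at 5.18, 4.89, 4.99 and 4.74. With IL7 it stood at 7.88, 7.50, 8.30 and 8.61, a rise of 3.13 (SE 0.22, adjusted p = 2.2e-06). Ctla4, an inhibitory receptor of T cells, was bright before treatment, at 10.52, 10.57, 9.86 and 10.36, and rose to 12.74, 12.34, 12.07 and 12.23. That was 4.04-fold, with the smallest SE among the 15 largest rises (2.02, SE 0.09, adjusted p = 2.3e-08). The interleukin 10 receptor chain Il10ra rose by 1.34 (SE 0.10), the costimulatory receptor Tnfrsf18 (GITR) by 1.17 (SE 0.10) and the interferon gamma receptor chain Ifngr1 by 0.86 (SE 0.08). Of 24 cytokines and cytokine or costimulatory receptors tested, these 7 genes, counting Osm, Ctla4, Tnfsf11 and Lta, were higher and none was lower, with a median change of 0.22. Without sorts 2 and 3, 6 were higher. Of 11 chemokine and migration receptors tested, Gpr83 and Gpr18 were higher and the integrin chain Itgae was lower. Neither Gpr18 (0.49) nor Itgae (-0.52) was called without sorts 2 and 3 (limma adjusted p = 0.12 and 0.2). Their values there were 0.70 and -0.74.

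The gate genes moved too. Tfrc, which encodes the CD71 of the gate, stood at 11.39, 11.10, 11.21 and 11.12 and rose to 12.82, 12.50, 12.40 and 12.91, by 1.45 (SE 0.10, adjusted p = 1.8e-06). Il2ra, which encodes the CD25 that DN4 cells have lost, was detected in 1 untreated and all treated cultures. It went from 5.32, 4.97, 5.15 and 5.14 to 6.02, 5.78, 5.57 and 6.15, by 0.74 (SE 0.09, adjusted p = 0.00038), and stayed close to background. These levels were measured after sorting and culture. Thy1, the surface marker of all thymocytes, was bright and rose by 0.31 (adjusted p = 0.036), and Cd24a, a marker of immature thymocytes, by 0.86 (adjusted p = 0.02). Neither was called without sorts 2 and 3 (adjusted p = 0.44 and 0.29).

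Prnp, which encodes the prion protein, stood at 8.50, 8.55, 8.82 and 8.65 without IL7 and at 10.48, 10.39, 10.66 and 11.10 with it, a rise of 2.03 (SE 0.10, adjusted p = 1e-07). Sema7a, a membrane-anchored semaphorin of lymphocytes, went from 5.87, 6.59, 6.56 and 5.87 to 8.28, 8.19, 7.86 and 8.36, by 1.95 (SE 0.19, adjusted p = 4.3e-05). Its rise was uneven, 1.31 in sort 3 against 2.49 in sort 4. Across the 15 largest rises the treated and the untreated levels did not overlap, and each gene was called on the 8 DN4 arrays alone and without sorts 2 and 3. On the 8 DN4 arrays alone 93 genes were called in all (1.05%), and without sorts 2 and 3 in any subset 66 were (0.748%).

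**Figure D3:**
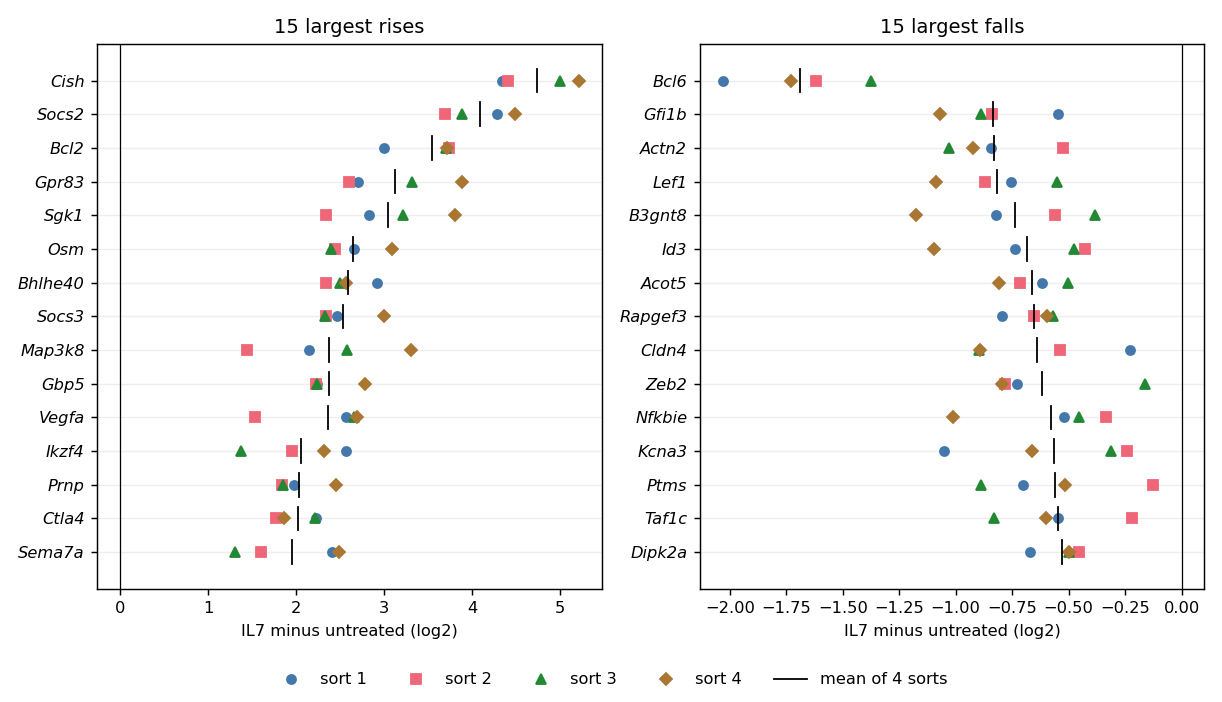
The change with IL7 (log2, x axis) is shown by sort for the 15 largest rises and the 15 largest falls, with a bar at the mean of 4 sorts. For each gene all 4 points lie on the same side of 0, which the choice of genes required. The rises reach 4.74 (Cish) while the falls reach -1.69 (Bcl6).

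Of 12 interferon-inducible GTPases tested, a family picked out after the values were seen, 8 were higher with IL7. The guanylate-binding proteins and the immunity-related GTPases defend cells against intracellular microbes and are best known as targets of interferon gamma. Gbp5 stood at 5.96, 5.62, 5.66 and 5.36 and rose to 8.20, 7.84, 7.90 and 8.14, by 2.37 (SE 0.12, adjusted p = 1e-07). Igtp was bright before treatment, at 9.74, 9.85, 10.04 and 10.17, and rose to 11.40, 11.42, 11.75 and 12.05, by 1.70 (SE 0.07, adjusted p = 1e-08). Gbp7 rose by 1.53, Irgm2 by 1.22, Ifi47 by 0.91, Gbp3 by 0.64 and Gbp2 by 0.35. Without sorts 2 and 3 the last pair was not called (adjusted p = 0.12 and 0.42). Tgtp1 was not above background in untreated cultures and was detected in 3 of 4 treated ones, at least 1.20-fold higher (adjusted p = 0.024). It was the 1 called gene that did not move the same way in all 4 sorts, with -0.03 in sort 3. Its groups overlapped, and it was not called on the 8 DN4 arrays alone (limma adjusted p = 0.25). None of the 12 GTPases was lower, while Gbp11 (0.67) and Irgm1 (0.17) were among those that did not pass. Members of such a family can share sequence, and probes were not checked for it. In the broader list of interferon response genes, which includes Ifit3, Isg15 and Irf7, 2 of 14 tested were higher (Gbp3 and Gbp2), none was lower and the median was 0.03.

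Transcription factors moved in both directions. Bcl6, a repressor that STAT5 is known to switch off, stood at 10.15, 9.96, 10.49 and 10.18 without IL7 and at 8.12, 8.35, 9.12 and 8.45 with it. Its change was -1.69 (SE 0.10, adjusted p = 3.3e-07), a level 3.22-fold lower, and was seen in every sort and also without sorts 2 and 3 (adjusted p = 0.0013). Gfi1b, a zinc finger repressor of early thymocytes and red cells, went from 6.48, 6.58, 6.28 and 6.42 to 5.93, 5.74, 5.39 and 5.35, and changed by -0.84 (adjusted p = 0.0025). Lef1, which answers WNT signals and promotes the step to double-positive cells, went from 7.79, 7.94, 7.25 and 7.79 to 7.04, 7.08, 6.70 and 6.70 (-0.82, SE 0.12, adjusted p = 0.0017). A second Lef1 probe had a value of -0.22 (limma adjusted p over all probes = 0.62). Id3, an inhibitor of E proteins induced by pre-TCR signals, went from 8.95, 9.06, 9.02 and 9.09 to 8.21, 8.64, 8.54 and 7.99 (-0.68, SE 0.15, adjusted p = 0.026). In these 4 factors the groups did not overlap, yet without sorts 2 and 3 only Bcl6 among them was called.

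In the opposite direction, Bhlhe40, a basic helix-loop-helix repressor, was not well above background in untreated cultures, at 4.71, 4.68, 4.44 and 4.54. It stood at 7.63, 7.02, 6.95 and 7.10 with IL7, at least 3.80-fold higher (adjusted p = 2e-08). Ikzf4, which encodes the zinc finger factor EOS, went from 5.17, 5.48, 6.15 and 5.63 to 7.74, 7.44, 7.53 and 7.94, by 2.05 (SE 0.17, adjusted p = 7.5e-06). Runx1, which T cell development requires, rose by 0.76 (SE 0.06, adjusted p = 3.6e-06). Of 24 T lineage transcription factors tested, Bhlhe40 and Runx1 were higher and Bcl6, Gfi1b, Lef1 and Id3 were lower, with a median of -0.00. Klf2, a FOXO target that guides T cell exit, stood at 10.28, 10.53, 9.19 and 9.81 and rose to 11.77, 11.82, 10.55 and 11.09 (1.35, SE 0.10, adjusted p = 4.4e-06). Among 15 FOXO-linked and quiescence genes tested, Klf2 was the only one higher and Bcl6 the only one lower, and the median was -0.13. Klf9, a related factor, rose by 1.93 (adjusted p = 1.4e-06). The early gene Fos went from 6.17, 6.61, 5.65 and 5.91 to 7.96, 7.62, 7.62 and 7.92 (1.70, SE 0.22, adjusted p = 0.00068), while the phosphatase gene Dusp2 had -0.46 (adjusted p = 0.013, and 0.23 without sorts 2 and 3), and these were the 2 called among 13 receptor-induced early genes.

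Differentiation genes moved in both directions. Of 14 genes of the step from DN to double-positive cells tested, 4 were lower (Lef1, Id3, Aqp11 and Mns1), 1 was higher (Cd2) and the median was -0.17. Aqp11, an aquaporin, changed by -0.35 and Mns1, a protein of the sperm flagellum, by -0.30. Cd2, an adhesion receptor, rose by 0.84 (SE 0.16, adjusted p = 0.0099). None of these 5 was called without sorts 2 and 3. Cd8b1, the CD8 beta chain, had -0.29 (adjusted p = 0.19). The terminal transferase Dntt, which adds bases at V(D)J joints, was the 1 gene called among 9 of V(D)J recombination, at -0.38 (adjusted p = 0.015, and 0.58 without sorts 2 and 3). The recombinase genes Rag1 (-0.18) and Rag2 (-0.03) did not pass. Ptcra, which encodes the pre-T alpha chain, stood at 6.74, 5.85, 5.91 and 6.12 and at 5.51, 5.47, 5.15 and 5.60, and its change of -0.72 missed the threshold (SE 0.19, adjusted p = 0.082). No member of the 13 pre-TCR and proximal signalling genes was called, with 2 below an unadjusted p of 0.05.

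The remaining large falls were of mixed function. Actn2, an actin-crosslinking alpha-actinin, went from 8.44, 8.45, 8.91 and 8.70 to 7.59, 7.93, 7.88 and 7.78, by -0.83 (SE 0.11, adjusted p = 0.00082). Rapgef3, the cAMP-activated exchange factor EPAC1, went from 9.80, 9.84, 10.20 and 9.68 to 9.01, 9.19, 9.63 and 9.08, by -0.65 (SE 0.07, adjusted p = 0.00011). In both genes the groups did not overlap. The acyl-CoA thioesterase gene Acot5 changed by -0.66, the glycosyltransferase gene B3gnt8 by -0.74, the tight junction gene Cldn4 by -0.64 and Dipk2a by -0.53. Nfkbie, an inhibitor of NF-kappaB, changed by -0.58, the potassium channel gene Kcna3 by -0.57, the parathymosin gene Ptms by -0.56 and Taf1c, a subunit of the RNA polymerase I machinery, by -0.55. Further probes of B3gnt8 and Nfkbie had -0.27 and -0.38 and did not pass (limma adjusted p over all probes = 0.70 and 0.21). The zinc finger repressor gene Zeb2 was detected in 3 of 4 untreated and in no treated culture, so that it was at least 1.19-fold lower. Of the 15 largest falls, 10 had groups that did not overlap, 7 were called on the 8 DN4 arrays alone, and Bcl6, B3gnt8 and Zeb2 were called without sorts 2 and 3.

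Growth and metabolic genes are read against the 2.44% called over all genes. Of 23 genes of amino acid supply and the stress factor ATF4 tested, 3 were higher, 1 was lower and the median was 0.13. Chac1, which degrades glutathione, went from 8.19, 7.87, 7.50 and 8.07 to 9.17, 9.06, 9.12 and 9.69 (1.35, SE 0.22, adjusted p = 0.0036). The transcription factor gene Cebpb rose by 0.98 and the pseudokinase gene Trib3 by 0.77, while Ddit4, an inhibitor of mTORC1, changed by -0.44. None of the 4 was called without sorts 2 and 3. The leucine transporter gene Slc7a5 was bright at 12.58 to 13.04 in untreated cultures and did not pass (0.13, SE 0.10, adjusted p = 0.72). No gene passed among 19 of ribosome biogenesis, 17 of cholesterol synthesis, 13 of glycolysis, 18 aminoacyl-tRNA synthetases, 19 of the respiratory chain and 8 of heat shock. Below an unadjusted p of 0.05 lay 3, 6, 0, 1, 0 and 1 of them, in that order, and their medians lay between -0.04 and 0.08. Myc, the growth regulator, had -0.24 (SE 0.13, adjusted p = 0.56), the spermidine synthase gene Srm -0.02 (SE 0.07) and the hexokinase gene Hk2 0.35 (SE 0.20, adjusted p = 0.59).

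Cell cycle genes gave 1 call per list, too few to set against the 2.44% over all genes. Ccnd2, the D cyclin that STAT5 is known to induce, rose by 0.64 (SE 0.13, adjusted p = 0.015) and was the 1 gene called among 21 of G1/S and DNA replication, with a median of 0.05. Ube2c, a ubiquitin-conjugating enzyme of mitosis, rose by 0.58 (SE 0.11, adjusted p = 0.0097) and was the 1 gene called among 15 of G2/M, with a median of 0.02. Neither was called without sorts 2 and 3 (adjusted p = 0.19 and 0.22). The cyclin gene Ccnd3 (-0.09) and the CDK inhibitor gene Cdkn1b (-0.16) did not pass. Il2ra was the 1 gene called among 11 Notch receptors and targets, where the median was 0.02.

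None of 10 receptor, JAK and STAT genes passed, where 2.44% of all genes did, none lay below an unadjusted p of 0.05, and all changes lay between -0.11 and 0.07. Il7r, the receptor chain that IL7 is known to lower in mature T cells, had -0.08 (SE 0.18, adjusted p = 0.94), and Stat5a had -0.11 (SE 0.07, adjusted p = 0.65). Of 17 known IL7 and STAT5 targets tested, 12 were higher and none lower, with a median of 0.82 against -0.01 for all genes. This list was drawn up with earlier results of these data known, so its count and median are not independent evidence. Its rising members were Cish, Socs2, Bcl2, Osm, Socs3, Map3k8, Lta, Pim1, Socs1, Il2ra, Ccnd2 and Bcl2l1, and 8 of the 17 were called without sorts 2 and 3. Mcl1, Ccnd3, Id2 and Gadd45g (0.30) did not pass, nor did Il18r1 (0.50), a receptor chain for interleukin 18. Probes of Pim2, Stat5b, Cd4 and Cd8a were not detected on enough arrays, and Tcf7 was not analysed here.

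**Figure D4:**
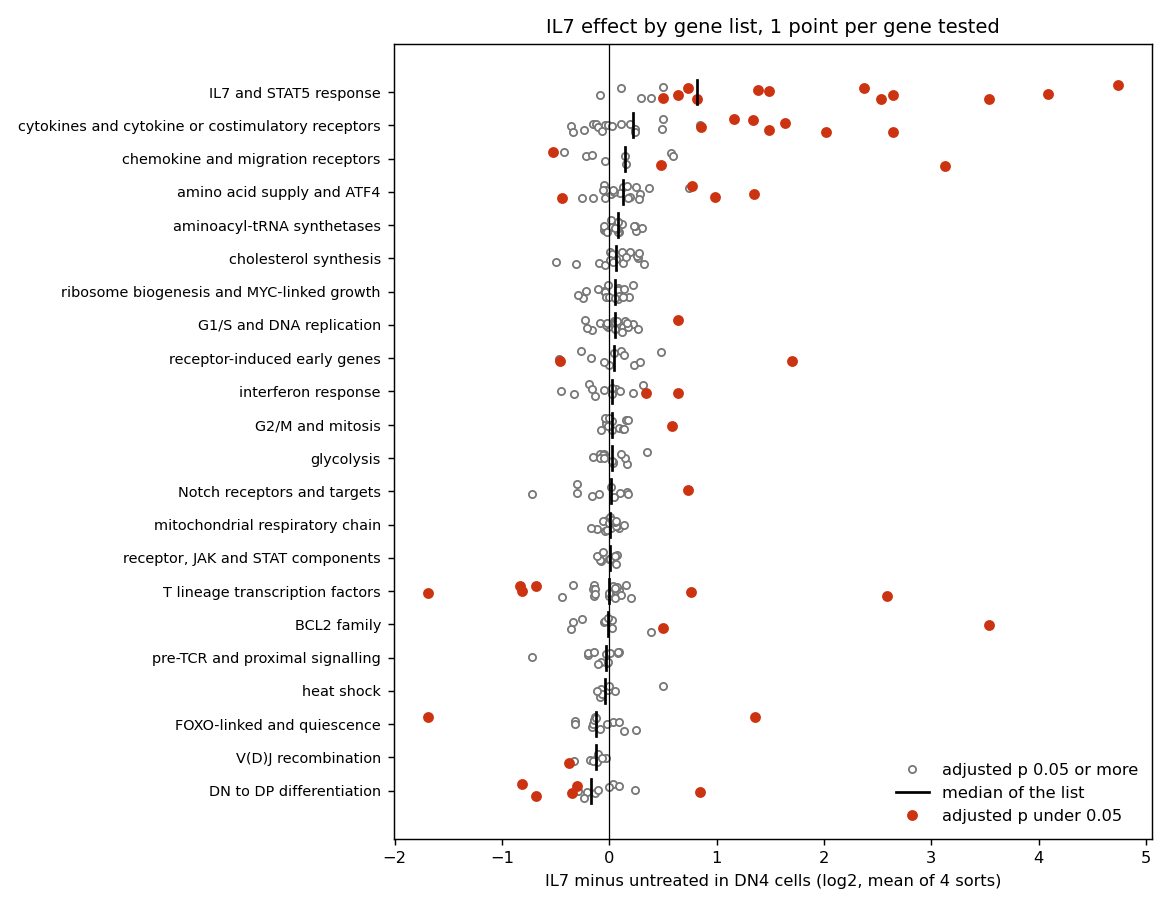
The change with IL7 in DN4 cells (log2, x axis) is shown for each tested gene of 22 lists (y axis), in red where the adjusted p was under 0.05, with a bar at the list's median. The list of IL7 and STAT5 targets has its median at 0.82, and the other medians lie between -0.17 and 0.22. The lists were drawn up with earlier results of these data known.

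Some genes went from undetected to detected. Of the 215 called genes, 8 were detected in 4 of 4 treated and 0 of 4 untreated cultures, and 0 showed the reverse. Over all genes tested, 9 were detected only with IL7 in this way and 5 only without it. Beside Socs2, Bhlhe40, Map3k8 and Lta these were Rgs1, Cndp2, Gadd45b and Acer1. Rgs1, a regulator of G protein signalling in lymphocytes, reached 5.95, 5.82, 5.81 and 5.91, at least 1.54-fold higher (adjusted p = 0.015). Further Rgs1 probes, detected on 0 of the 8 DN4 arrays, had 0.04 and 0.44 and did not pass (limma adjusted p over all probes = 0.95 and 0.37). Cndp2, a dipeptidase, reached 6.15, 5.69, 6.02 and 6.13, at least 1.68-fold higher (adjusted p = 0.00056). The bounds for Gadd45b, a stress-induced gene, and Acer1, an alkaline ceramidase, were 1.37 and 1.15. Lta, Rgs1, Gadd45b and Acer1 were not called without sorts 2 and 3 (adjusted p = 0.09, 0.14, 0.4 and 0.051).

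The sorts differed in the size of the response. The median rise of the 164 risers was 0.67, 0.61, 0.65 and 0.82 in sorts 1 to 4, whereas the median over all genes was between -0.01 and -0.00 in each. Sort 4 gave the largest rise for 87 of the 164 genes, and sort 2 the smallest for 63. The fallers had medians of -0.46, -0.34, -0.47 and -0.50. Sorts 2 and 3, which carried granulocyte transcripts, had smaller rises than sort 4 and nearly the same as sort 1. The part of these transcripts in the differences was not tested. Without both sorts the median change of the 164 genes was 0.79. The median change of the 51 fallers was -0.46 there. Of the risers 61 stayed called, and of the fallers 3, in a fit with fewer pairs. All 164 risers and all 51 fallers kept their direction. They had been called with sorts 1 and 4 included, so that this is not independent evidence.

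The DN4 response lay largely within that of the earlier stages. IL7 changed 1850 genes in DN3a cells (21.0%) and 865 in DN3b cells (9.81%), tested in the same model. Of the 164 DN4 risers, 126 (76.8%) also rose in DN3a cells, 15.1% of the 833 DN3a risers, and 148 (90.2%) also rose in DN3b cells, 34.99% of the 423 DN3b risers. Of the 51 fallers, 39 also fell in DN3a and 43 in DN3b cells. The 423 DN3b risers had a median change of 0.58 in DN3b and 0.28 in DN4 cells. The 833 DN3a risers had medians of 0.45 in DN3a and 0.09 in DN4 cells. These genes were chosen by their DN3 values, which raises the DN3 medians. In total 17 genes were called in DN4 and in neither DN3 subset, of which 7 differed from DN3a and none from DN3b cells in a test of the difference.

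The difference between the IL7 effects was tested for each gene. DN4 and DN3a cells differed in 473 genes (5.36%), 232 with the higher value in DN4 and 241 with the lower, and DN4 and DN3b cells in 27 (0.306%), 6 higher and 21 lower. Of the 164 risers, 27 rose more in DN4 than in DN3a cells and 22 less. None rose more than in DN3b cells, and 8 rose less. These counts leaned on all 4 sorts, because without sorts 2 and 3 the limma test called 6 genes against DN3a and 0 against DN3b (978 and 587 at an unadjusted p under 0.05).

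Genes with a larger rise in DN4 than in DN3a cells included receptors and kinases. Gpr83 rose by 3.13 in DN4 and by 1.17 in DN3a cells, a fitted difference of 1.96 (adjusted p = 0.0035) from untreated levels mostly below background in both subsets. Sgk1 rose by 3.05 and 1.31 (difference 1.74, adjusted p = 0.011), and Socs3 by 2.53 and 0.70 (difference 1.84, adjusted p = 2.4e-05). Ctla4, with 2.02 and 0.97, and Il10ra, with 1.34 and 0.27, showed the same pattern (differences 1.05 and 1.08). For Socs3 and Il10ra, untreated DN3a cells lay above treated DN4 cells. Socs3 had means of 11.79 in untreated DN3a and 9.10 in treated DN4 cells, and Il10ra had 9.64 and 8.48. Sgk1 and Ctla4 did not show this, with 9.07 and 10.21 in untreated DN3a against 10.92 and 12.34 in treated DN4 cells. Esm1, which encodes the secreted proteoglycan endocan, rose by 1.18 in DN4 cells and changed by -0.58 in DN3a cells (difference 1.76, adjusted p = 8.7e-05). Opposite calls in DN4 and DN3a cells were made for 6 genes in all, of which only Esm1 kept its DN4 call without sorts 2 and 3 (adjusted p = 0.037, against 0.12 to 0.72 for the others). Beside Esm1, the NF-kappaB inhibitor gene Nfkbia had 0.44 in DN4 and -0.53 in DN3a cells, Gpr18 0.49 and -0.34, and Wwc2 0.32 and -0.46. Cbfa2t3, a corepressor gene, had -0.41 and 0.33, and Sepsecs, which makes selenocysteine transfer RNA, -0.52 and 0.40, although a second Sepsecs probe had the opposite sign in DN4 cells. Gpr183, an oxysterol receptor, and Cpa3, a mast cell protease, fell in DN3a cells (-2.06 and -2.23). The probes used for both lay below background in nearly all DN4 cultures, where a fall could not have been measured.

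Growth genes were among those with a smaller value in DN4 than in DN3a cells. The amino acid transporter gene Slc7a5 rose by 2.07 in DN3a cells against 0.13 in DN4 cells (difference -1.94, adjusted p = 1.9e-05). Srm had 1.53 against -0.02 (difference -1.55, adjusted p = 9.8e-06), and its DN4 value was also below the DN3b value of 0.70 (adjusted p = 0.0071). Asns, which makes asparagine, had 1.26 against 0.02. The mitochondrial folate enzyme gene Mthfd2 had 1.71 against -0.06, and the translation inhibitor gene Eif4ebp1 1.88 against 0.07. Asns, Mthfd2 and Eif4ebp1 were picked out after their values were seen. Untreated levels of these genes were higher in DN4 than in DN3a cells. In that order the means were 12.78 and 9.91 for Slc7a5 and 11.10 and 8.18 for Asns. They were 9.37 and 6.32 for Mthfd2, and 10.56 and 8.29 for Eif4ebp1. IL7-treated DN3a cells, at 11.99, 9.44, 8.03 and 10.17, stayed below those DN4 levels. For Srm the untreated means were 7.84 and 7.19, and treated DN3a cells reached 8.72. By lists, 15 of 23 amino acid and ATF4 genes, 14 of 19 ribosome biogenesis genes, 11 of 17 cholesterol synthesis genes and 11 of 18 aminoacyl-tRNA synthetases were higher with IL7 in DN3a cells, against 3, 0, 0 and 0 in DN4 cells. In the test of the difference, 13, 9, 8 and 8 of them were lower in DN4 than in DN3a cells. The 6 lowest differences from DN3a cells were those of Khdc1c (-3.22), Igf2 (-2.95), Il18r1 (-2.83), Nav1 (-2.34), Fam20a (-2.07) and Tmtc2 (-2.06), of which Igf2 is a growth factor and Nav1 a neuron navigator. None of the 6 passed the threshold in DN4 cells, where their values lay between -0.02 and 0.79. The probes of Khdc1c, Il18r1, Nav1, Fam20a and Tmtc2 used here were detected in no untreated DN4 culture, so that the sizes of these 5 differences depend on background levels.

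Even the strongest responses were smaller in DN4 cells for part of the IL7 programme. Bcl2 rose by 3.54 in DN4 against 4.85 in DN3a cells (difference -1.31, adjusted p = 0.0023), Prnp by 2.03 against 3.20 (difference -1.17, adjusted p = 0.0006) and Cish by 4.74 against 5.59 (difference -0.85, adjusted p = 0.038). Untreated Cish had a mean of 5.46 in DN4 cells, close to background, against 6.74 in DN3a cells. The size of its difference therefore depends on background levels. Treated Cish had means of 10.20 in DN4 and 12.33 in DN3a cells. Untreated Bcl2 had a mean of 5.77 in DN4 cells, not far above background, against 6.53 in DN3a cells. The size of the Bcl2 difference depends on background levels too. Treated Bcl2 had means of 9.31 in DN4 and 11.38 in DN3a cells. Socs2 was not above background in untreated DN4 and DN3b cells, so that only the treated levels were measured, at a mean of 8.74 in DN4, 10.33 in DN3a and 11.02 in DN3b cells. Bhlhe40, likewise not above background in untreated DN4 and DN3b cells, reached a mean of 7.18 in DN4 and 9.05 in DN3b cells. The lowest differences from DN3b cells further included Il18r1 (-3.20), Rab38 (-2.11), a RAB GTPase, Nav1 (-1.83), Ifitm3 (-1.78), an antiviral membrane protein, and Dyrk4 (-1.72), a kinase. Of these only Ifitm3 was above background in untreated DN4 and DN3b cells, and the sizes of the other differences depend on background levels. The 6 genes with a higher value in DN4 than in DN3b cells all fell in DN3b cells. Bcl6 fell less in DN4 cells (-1.69 against -2.74, adjusted p = 0.0039), and so did Actn2 (-0.83 against -1.73, adjusted p = 0.037). Lypd6b (1.02), Prag1 (0.99), the semaphorin receptor gene Nrp1 (0.74) and the homeobox repressor gene Tgif1 (0.71) completed them. Lypd6b lay close to background in DN4 cells, detected in 2 untreated and 2 treated cultures, where a fall could hardly have been measured.

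**Figure D5:**
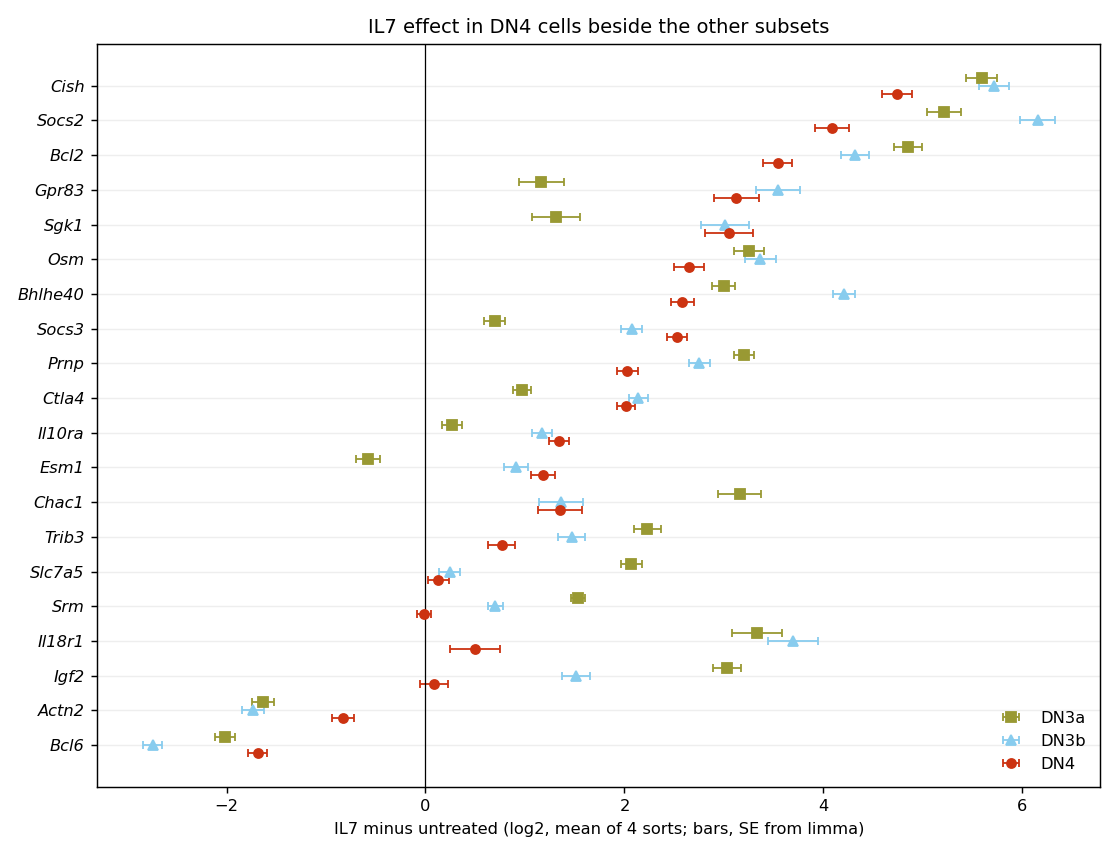
The change with IL7 (log2, x axis, mean of 4 sorts with limma's SE as bars) is shown for 20 genes in DN3a, DN3b and DN4 cells. DN4 values lie above DN3a values for Gpr83, Sgk1, Socs3, Ctla4, Il10ra and Esm1, and near 0 for Slc7a5, Srm and Igf2, which rose in DN3a cells.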

How the data were processed

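RNA of sorted thymocytes was hybridised as 1 colour to Illumina mouse Ref8v2 beadchips, 250 ng of total RNA per culture, per the labels. The deposited non-normalized table gave a probe intensity and a detection p-value per array, exported by the authors from GenomeStudio 2011.1 per the submitters' processing notes. The authors' deposited value table held log2 values, which differed by at most 0.084 from quantile-normalized log2 intensities without background correction, so that their scale was settled by comparison and not from a stated step. Every array column was used. The 4 DN4 arrays per group differ in sort, and nothing says how many mice a sort pooled.

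Intensities were corrected and quantile-normalized with neqc of limma 3.58.1 (offset 16), the background being inferred from the detection p-values. Of 25697 probes, 23978 had 1 gene symbol, 0 had several and 1719 had none; 23962 symbols were updated by gene identifier. Probes detected at p under 0.05 on at least 4 of the 24 arrays were kept (12939, of which 12158 were named), and the brightest stood for its gene (8820 genes). Of 36 other probes of the called genes named here, 16 gave the same call and 4 had the opposite sign. One limma model held 12 culture pairs as blocks and an IL7 term per subset, with Benjamini-Hochberg adjustment at 0.05 over the 8820 genes. The subset pairs follow the sort numbers in the labels. Paired DN4 arrays correlated at 0.29 to 0.60 in their deviations from group means, against a median of -0.13 across sorts, and 8 of 8 correlated best with their own sort. Replicates of a group correlated at 0.976 to 0.991. For a gene not above background in a whole group, a lower bound on the fold was taken against the lowest detected signal. The number of arrays limits the precision. The model was tested on simulated data.

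The members and gene lists were chosen with earlier results of these data known. Named genes were the 15 largest rises and falls among called genes that moved the same way in 4 sorts, passing over clone and predicted-gene names, called genes detected in only 1 DN4 group, called members of the lists, fixed genes, markers, and the 6 largest differences from each DN3 subset on each side. Klf9, Pik3cd, Rasgrp1, Thy1, Cd24a, Ifngr1, Tfrc, Gadd45g, Asns, Mthfd2 and Eif4ebp1 were singled out after their values were seen. So were the SOCS and GTPase families and the genes with opposite calls in DN3a cells. The alternatives were other background corrections, scalings, probe filters and probe choices, the authors' log2 values, other blocks, array weights, and leaving out sorts.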

Additional observations from a re-analysis of the deposited data

Results flagged for a closer look

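In 5 of the 78 called genes named here, 1 sort lay apart from the other 3 by Dixon's criterion for 4 values. Chance alone gives about 1 in 20. The Bcl2 rise was 3.00 in sort 1, the Gbp5 rise 2.78 in sort 4, the Pim1 rise 0.54 in sort 2 and the Vegfa rise 1.53 in sort 2. The Zeb2 change was -0.16 in sort 3.

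For the following genes of the 15 largest rises and falls the IL7 effect differed between subsets in limma's test of the difference. DN4 minus DN3a was 1.96 for Gpr83, 1.84 for Socs3, 1.74 for Sgk1, 1.05 for Ctla4, 0.80 for Actn2 and 0.61 for Acot5. It was -0.85 for Cish, -1.12 for Socs2, -1.17 for Prnp and -1.31 for Bcl2. DN4 minus DN3b was 1.05 for Bcl6, 0.90 for Actn2, -1.62 for Bhlhe40 and -2.07 for Socs2. Untreated levels of Socs2 and Bhlhe40 were not above background in DN4 and DN3b cells, nor were those of Gpr83 in DN3a cells, so the sizes for these 3 genes depend on background levels. Untreated Cish and Bcl2 lay close to background in DN4 cells, so the sizes of their differences do too.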

How the results depend on the processing

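The 215 calls became 103 with no replicate block for the pairs (94 higher, 9 lower), 93 on the 8 DN4 arrays alone with the pairing kept (84 and 9), 66 without sorts 2 and 3 (62 and 4) and 61 without sorts 1 and 3 (55 and 6). Leaving out 1 sort gave 90 to 145 calls (82 to 120 higher, 8 to 25 lower). Lower calls numbered 99 with no background correction, 99 with the authors' log2 values and 80 with an offset of 50. Differences from DN3a (473) became 727 with no background correction, 741 with the authors' values, 128 with no replicate block, 167 to 213 with 1 sort left out, 6 without sorts 2 and 3 and 24 without sorts 1 and 3. Differences from DN3b (27) became 97, 105 and, with an offset of 50, 68, then 16 with no block, 5 to 18 with 1 sort left out, and 0 without sorts 2 and 3 or without sorts 1 and 3 (limma; 587 and 936 at an unadjusted p under 0.05). Fewer samples enter the fit of the 8 DN4 arrays alone and all fits with sorts left out. The causes of these changes in count were not tested. Of the 78 called genes named, 28 kept their call in each of 19 alternatives and 39 lost it without sorts 2 and 3. Changes near 0 in uncalled genes turned sign. Leaving out 1 sort gave -0.076 to 0.12 for Asns, -0.032 to 0.26 for Gpr183, -0.044 to 0.26 for Igf2, -0.11 to 0.11 for Lypd6b, -0.017 to 0.19 for Rab38, -0.080 to 0.031 for Rag2, -0.071 to 0.015 for Srm and -0.084 to 0.022 for Tmtc2. Without sorts 2 and 3 the values were -0.064 for Gpr183, -0.14 for Igf2, -0.031 for Lypd6b, 0.021 for Mthfd2, 0.025 for Rag2, 0.049 for Srm and 0.038 for Tmtc2. Without sorts 1 and 3 they were -0.21 for Asns, -0.016 for Eif4ebp1, -0.13 for Igf2, 0.011 for Il7r and -0.083 for Lypd6b. Array weights gave -0.024 for Asns and -0.043 for Lypd6b, scaling to the 75th percentile -0.019 for Lypd6b and 0.0027 for Tmtc2, and the highest-F probe 0.044 for Cpa3. The called gene Sepsecs had 0.33 with the highest-F probe, and its difference from DN3a 0.29. A block for the array slide was not run because the file names no slide. Signal over background limits the genes near 5.16 to 5.33 on the log2 scale.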
